A study of Mus musculus with 6 samples.

Results

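Broad peaks of accessible chromatin in muscle stem cells (MuSCs) were taken as the ATAC-seq peaks whose stop minus start was 2500 bp or more, and 195 of the 75412 peaks (0.259%) met that rule. ATAC-seq uses the Tn5 transposase, which inserts sequencing adapters into DNA that is not covered by nucleosomes, so the reads in a peak measure how open that stretch is. Nuclei came from freshly isolated MuSCs of C57BL/6 mice, with 3 libraries from control mice and 3 from Taf4a sKO mice, the titles naming them WT and ko-Taf4a. Taf4a sKO mice carried Taf4a fl/fl and a tamoxifen-inducible Cre driven from Pax7 (Pax7CreERT) and received tamoxifen as adults. Control mice were littermates that also carried Taf4a fl/fl. The study's methods list both animals without the Cre and animals with it as controls, each with or without the Pax7-zsGreen reporter. Which kind gave these 3 libraries is not said. That list names tamoxifen for the Taf4a sKO animals only and does not state the treatment of the controls. The study used male and female animals. Because the Cre acts only where Pax7 is expressed, the deletion is limited to MuSCs and their descendants. Each library held a depth-normalised score per peak. Its total over all peaks was 37722015, 35226223 and 42803315 in the control libraries and 44311913, 41661725 and 41948821 in the Taf4a sKO libraries.

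TAF4A is a subunit of TFIID, the complex that binds core promoters and helps to place RNA polymerase II at the start site. A start site in use is usually marked by a nucleosome-free stretch, and where accessibility runs on for several nucleosomes beyond it, peak callers report 1 broad peak. In mammals most such promoters lie in CpG islands, stretches in which the CG dinucleotide has been kept. Accessible stretches away from start sites often act as enhancers.

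The 195 broad peaks were 2500 to 20683 bp wide, with a median of 2770 bp against 589 bp over all peaks. Most were close to the threshold: 143 were under 3000 bp wide, 52 were at least 3000 bp, 14 at least 3500 bp and 4 above 4000 bp. Together they covered 591867 bp, 1.14% of all bases in peaks, and they lay on 20 chromosomes, with 4 on chromosome X. Just inside the threshold were the start-site peaks of Setd7, a lysine methyltransferase (2500 bp), Rnd3, an atypical small GTPase (2501 bp), and Hmx3, a homeobox factor (2504 bp). Just outside it were a peak annotated to Znf608 without a protein-coding start site, 1 bp short of the threshold, and the start-site peaks of Prkcq, a protein kinase C (2494 bp), and Tbkbp1 (2493 bp). Mean signal per kb was 1322, 1754 and 262 in the first 3 and 764, 867 and 362 in the last 3, so the threshold did not part strong from weak peaks. The lowest mean score of any broad peak was 259, so that all 195 passed the filter on low values.

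Start sites of protein-coding genes marked most of the broad peaks. In the mm10 genome with GENCODE vM21, 157 of 195 (80.5%) held a protein-coding start site, against 17.7% of all peaks and 77.0% of the 686 peaks of 2000 to under 2500 bp. Genes were assigned by the authors to 171 broad peaks, 159 of them protein coding. The other 24 had no gene assigned, although 9 of these held a protein-coding start site. By these assignments the 171 peaks belonged to 170 genes, with 2 for Klf9, and Bcor and Nol4l each had a second broad peak at another of their start sites to which no gene was assigned. Grouped by what they covered, with repeat-rich peaks set apart (3 of the 157 among them), 154 broad peaks held a protein-coding start site, 11 held the start site of another kind of transcript, 24 held none of that annotation, and 6 were repeat rich, with repeats masked over 50% or more of their bases. Among the 24 without a start site, the centre lay in an intron in 10 and between genes in 14, and 1 of the 24 held the start of a processed pseudogene that the authors assigned to it.

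The density of CG differed between peaks with and without a start site. A CG dinucleotide occurred at a median of 67.4 per kb in the 154 broad peaks with a protein-coding start site, at 53.1 per kb in the 11 with another start site, at 19.6 per kb in the 24 without a start site, at 19.7 per kb in the 6 repeat-rich peaks and at 15.9 per kb over all peaks. In narrower peaks it was 64.0 per kb with a protein-coding start site (69.5 at 2000 to under 2500 bp) and 13.5 without a start site. The windows below show this contrast: 4 RefSeq promoters (GRCm38, 250 bases before to 50 after the start site) that lie whole inside a broad peak, chosen because their peaks are described below, and the central 300 bases of the broad peak in an intron of Rara, which has no start site. They lie at chr4:95052173-95052472 (Jun, minus strand), chr4:152273862-152274161 (Gpr153, plus strand), chr8:128358823-128359122 (Nrp1, plus strand), chr1:69108010-69108309 (Erbb4, minus strand) and chr11:98942564-98942863 (Rara intron, shown on the plus strand). Capitals mark each CG, of which the windows hold 15, 35, 14, 17 and 3.
Jun promoter: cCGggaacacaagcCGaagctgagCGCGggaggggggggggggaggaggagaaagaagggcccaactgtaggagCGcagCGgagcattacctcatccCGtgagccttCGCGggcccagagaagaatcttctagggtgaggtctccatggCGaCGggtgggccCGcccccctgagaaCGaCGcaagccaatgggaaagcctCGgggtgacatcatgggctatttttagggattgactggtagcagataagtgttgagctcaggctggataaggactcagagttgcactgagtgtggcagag
Gpr153 promoter: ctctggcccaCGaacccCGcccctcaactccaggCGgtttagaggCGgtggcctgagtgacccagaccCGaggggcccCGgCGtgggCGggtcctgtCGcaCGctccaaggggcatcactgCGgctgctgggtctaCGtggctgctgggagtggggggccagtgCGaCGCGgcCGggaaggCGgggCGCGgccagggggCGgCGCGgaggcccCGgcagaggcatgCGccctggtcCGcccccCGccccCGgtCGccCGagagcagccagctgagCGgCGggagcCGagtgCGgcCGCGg
Nrp1 promoter: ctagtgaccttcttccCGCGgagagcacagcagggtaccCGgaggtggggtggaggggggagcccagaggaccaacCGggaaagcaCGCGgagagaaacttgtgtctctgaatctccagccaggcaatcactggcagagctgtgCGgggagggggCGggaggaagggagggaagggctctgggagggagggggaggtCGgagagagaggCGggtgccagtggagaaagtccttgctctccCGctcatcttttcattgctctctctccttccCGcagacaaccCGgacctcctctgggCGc
Erbb4 promoter: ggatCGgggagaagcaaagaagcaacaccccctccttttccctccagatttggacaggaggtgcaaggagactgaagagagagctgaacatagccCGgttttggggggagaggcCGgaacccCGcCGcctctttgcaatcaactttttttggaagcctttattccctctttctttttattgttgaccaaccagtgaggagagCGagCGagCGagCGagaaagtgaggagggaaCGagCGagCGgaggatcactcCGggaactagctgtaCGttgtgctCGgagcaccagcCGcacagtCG
Rara intron: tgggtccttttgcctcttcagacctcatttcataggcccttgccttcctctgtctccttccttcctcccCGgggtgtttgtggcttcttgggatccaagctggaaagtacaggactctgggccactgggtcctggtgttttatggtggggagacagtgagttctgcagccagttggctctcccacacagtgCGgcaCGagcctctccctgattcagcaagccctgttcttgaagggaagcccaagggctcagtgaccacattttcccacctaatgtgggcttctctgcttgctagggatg

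Promoter letters were counted on both strands in the 170 RefSeq windows that lie whole inside a broad peak and are not repeat rich, in the 12311 inside a narrower peak and in all 32817. GGGCGG, the core letters of the GC box, was held by 70.6% of windows in broad peaks, 69.7% in narrower peaks and 35.6% of all windows. CCAAT was held by 28.8%, 37.6% and 37.4%, and TATAAA by 9.41%, 5.46% and 13.6%. In the central 300 bases of the 24 broad peaks without a start site, TGANTCA, the letters of an AP-1 element, occurred in 4 (16.7%) against 26.1% of 58475 narrower peaks without a start site and 6.35% of the 126 of these that were 2000 to under 2500 bp wide. CAGCTG, an E-box, occurred in 5 (20.8%) against 31.7% and 17.5%. No 2 of these letter strings can be read from the same bases in full, and a match is not evidence of binding.

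Signal per length rose with width up to about 1500 bp and then levelled off. The median score per kb, averaged over the 6 libraries, was 233 in peaks under 500 bp, 405 at 500 to under 1000 bp, 900 at 1000 to under 1500 bp, 1085 at 1500 to under 2000 bp, 1127 at 2000 to under 2500 bp and 1194 in broad peaks. Against 11956 narrower peaks centred within 1000 bp of a protein-coding start site, where the median was 1092 per kb, the broad peaks were slightly denser per base, at 1.02 to 1.11 times the median of those peaks in each of the 6 libraries. Among the broad peaks themselves width and signal per kb were unrelated (Spearman correlation of -0.027 over 195 peaks that share the same 6 libraries). By group, the median was 1228 per kb with a protein-coding start site, 1094 with another start site, 1116 without a start site and 157 in the repeat-rich peaks.

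**Figure D1:**
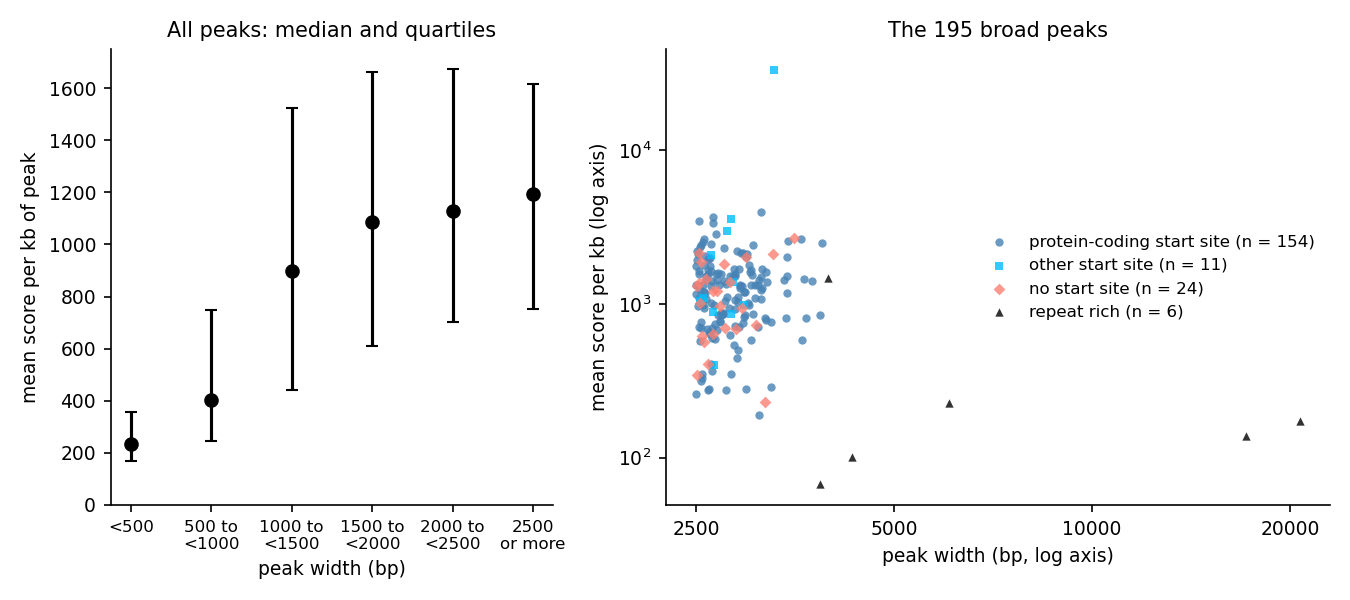
Mean score per kb by peak width. Left, median (points) and quartiles (bars) of all peaks in 6 width classes, rising from 233 to 1194; right, each of the 195 broad peaks on log axes, with marker and colour by what the peak covers, where 5 of the 6 repeat-rich peaks sit near the bottom and 1 peak annotated to an rRNA gene sits far above the rest.

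In each library the broad peaks took up about 2% of the signal in peaks. The share was 2.10%, 2.00% and 2.03% in the control libraries and 2.02%, 2.00% and 1.93% in the Taf4a sKO libraries, 2.05% ± 0.0527 against 1.99% ± 0.0502 (SD, n = 3 each), and the genotypes overlapped. Median score per kb of the broad peaks was 1121, 1001 and 1253 in control and 1260, 1233 and 1216 in Taf4a sKO MuSCs, also with overlap. Control replicate 2 was the lowest library in both total and median score.

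Some of this signal was concentrated in a few peaks. A 3285 bp peak at chr17:39843033-39846318, annotated to an rRNA gene, had 33254 per kb and held 11.7% to 14.9% of the score of all broad peaks in each library. It measured 110866, 82723 and 111191 in control and 133543, 114252 and 102853 in Taf4a sKO MuSCs, and the genotypes overlapped (log2 fold change 0.21 ± 0.12 SE, limma adjusted p = 0.19). The authors removed ribosomal reads, and the part of gene copy number or read mapping in the level of this peak was not tested. Next came Ppp2r3d, a phosphatase regulatory subunit (3956 per kb), Klf10, a zinc finger repressor induced by TGF-beta (3654), the upstream of the Klf9 peaks (3586), and Jun, the AP-1 subunit (3447). Their log2 fold changes lay between -0.045 and 0.069 and none passed the test, although Klf10 passed as lower with TMM factors and equal library totals and Jun with equal totals and quantile normalisation.

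The widest of all were repeats. The 5 widest broad peaks were repeat rich, and the widest pair, both at the start of chromosome 9, spanned chr9:3017520-3038203 (20683 bp, annotated to Gm10717) and chr9:3000034-3017185 (17151 bp, Gm10721). Masked repeats filled 95.9% and 97.0% of them. Compared with themselves at shifts of 20 to 500 bp, both matched best at 234 bp, the length of the mouse major satellite unit, with 75.5% and 66.6% identical bases. The median of this self-identity over all broad peaks was 30.0%. Only 7 broad peaks reached 50%, namely the 6 repeat-rich ones and the peak annotated to Muc3, a membrane mucin, which matched best at 54 bp (77.2%) although none of its bases were masked. To show the repeats, 1 unit from the centre of each of these peaks is given on the plus strand of GRCm38, from chr9:3027862-3028095 and chr5:137151405-137151458, with capitals at the bases that differ from the next copy (22 of 234 and 14 of 54).
Gm10717 repeat unit: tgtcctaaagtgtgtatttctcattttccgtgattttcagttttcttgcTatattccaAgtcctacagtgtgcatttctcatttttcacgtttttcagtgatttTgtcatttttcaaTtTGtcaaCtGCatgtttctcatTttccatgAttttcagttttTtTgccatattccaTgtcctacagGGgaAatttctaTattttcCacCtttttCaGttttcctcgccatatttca
Muc3 repeat unit: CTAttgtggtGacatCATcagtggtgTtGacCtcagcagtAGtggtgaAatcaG

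The Gm10717 and Gm10721 peaks were weak per base, at 174 and 139 per kb, and their values in Taf4a sKO MuSCs depended on the library. The Gm10717 peak measured 3840, 3866 and 3863 in control and 2556, 4615 and 2912 in Taf4a sKO MuSCs, with Taf4a sKO replicate 2 above and the other two below every control library. The same order was seen for Gm10721 (2560, 2520 and 2586 against 1710, 2973 and 1972) and for Gm21738 on chromosome 14, a repeat-rich peak with 1479.9 per kb (6271, 6173 and 6285 against 4421, 7208 and 4894), and none of the 3 passed the test. The authors kept uniquely placed reads, so a fragment in such an array is counted only where its copy differs from the others. Apart from the repeats, the widest broad peaks were those of H2-DMa (3891 bp), which also spans the start site of Brd2, a reader of acetylated histones, Jade2, a subunit of HBO1 acetyltransferase complexes (3862 bp), Socs2, a suppressor of cytokine signalling (3757 bp), and Sox6, a factor of muscle fibre type (3676 bp).

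The reach of broad peaks was measured from the start site of their annotated gene, taken as the upstream end of the gene record. Transcripts that start farther inside a gene lengthen the downstream reach on this measure, and narrower peaks were not measured. In the 129 that held the start site of their annotated protein-coding gene and were not repeat rich, the peak reached a median of 840 bp upstream (quartiles 486 and 1351) and 1941 bp downstream (quartiles 1458 and 2367). It reached farther downstream in 99 and farther upstream in 29. Start sites on both strands were covered by 8 broad peaks, none of which passed the test (limma, with 0 at an unadjusted p under 0.05), against 11.7% higher and 3.25% lower of the broad peaks with a protein-coding start site and 28.0% and 13.9% of all peaks, although 3 passed as lower with TMM factors and 4 with equal totals or quantile normalisation.

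**Figure D2:**
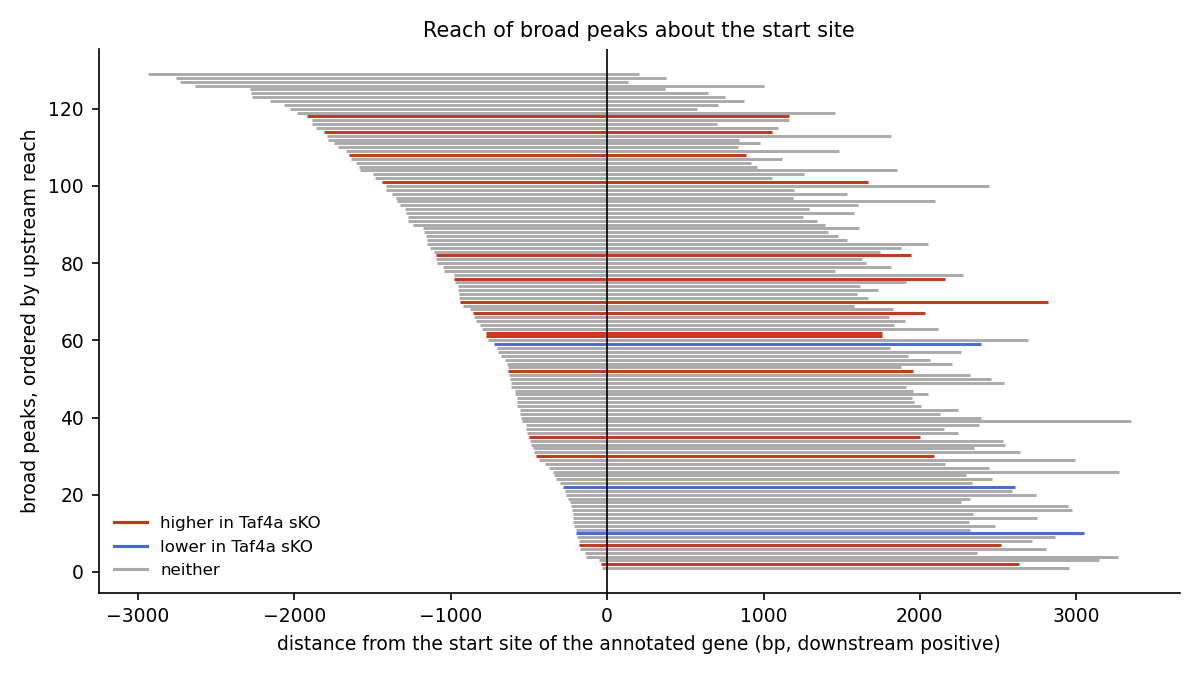
Reach of the 129 broad peaks about the start site of their gene. Each line is 1 peak, drawn from its upstream to its downstream end in bp from the start site at 0 and ordered by upstream reach, with colour by the call in Taf4a sKO MuSCs; most lines extend farther to the right (downstream) than to the left.

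The comparison of genotypes asked where the loss of Taf4a goes with a change in accessibility. On the deposited scale most broad peaks did not pass the test. By limma at an adjusted p under 0.05, 34 of 195 (17.4%) were higher in Taf4a sKO MuSCs and 10 (5.13%) were lower, against 28.0% and 13.9% of all 75384 peaks tested. The median log2 fold change was 0.069 in broad peaks and 0.11 over all peaks. The middle range from the first to the third quartile ran from -0.043 to 0.18 in broad peaks and from -0.20 to 0.47 over all peaks. All 3 Taf4a sKO libraries lay above all 3 control libraries in 44 broad peaks and below them in 15, that is 22.6% and 7.69%, against 32.3% and 18.0% of all peaks. With the cut-offs in the study's methods, a log2 ratio of group means beyond 1, no broad peak was gained and 1, Grin2a, was lost, against 7.02% and 5.36% of all peaks. The split of the calls depended on the scaling between libraries. With TMM factors 38 broad peaks were higher and 55 lower, so that higher peaks went from 77.3% to 40.9% of the calls, and the median over all peaks moved from 0.11 to -0.0059 and that of broad peaks to -0.043. These were 19.5% and 28.2% of the broad peaks, against 25.4% and 22.3% of all peaks. With equal library totals the shares were 15.9% and 40.0% against 23.4% and 25.8%, and with quantile normalisation 23.1% and 33.8% against 24.8% and 25.1%, so that under these 3 scalings the broad peaks were called at least as often as all peaks and more often lower. The median of the broad peaks minus that of all peaks was -0.037 on the deposited scale, with TMM factors and with equal totals, and -0.0081 with quantile normalisation. The count of higher peaks also hung on single libraries, being 19 without control replicate 1, 21 without Taf4a sKO replicate 1 and 76 without control replicate 3.

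**Figure D3:**
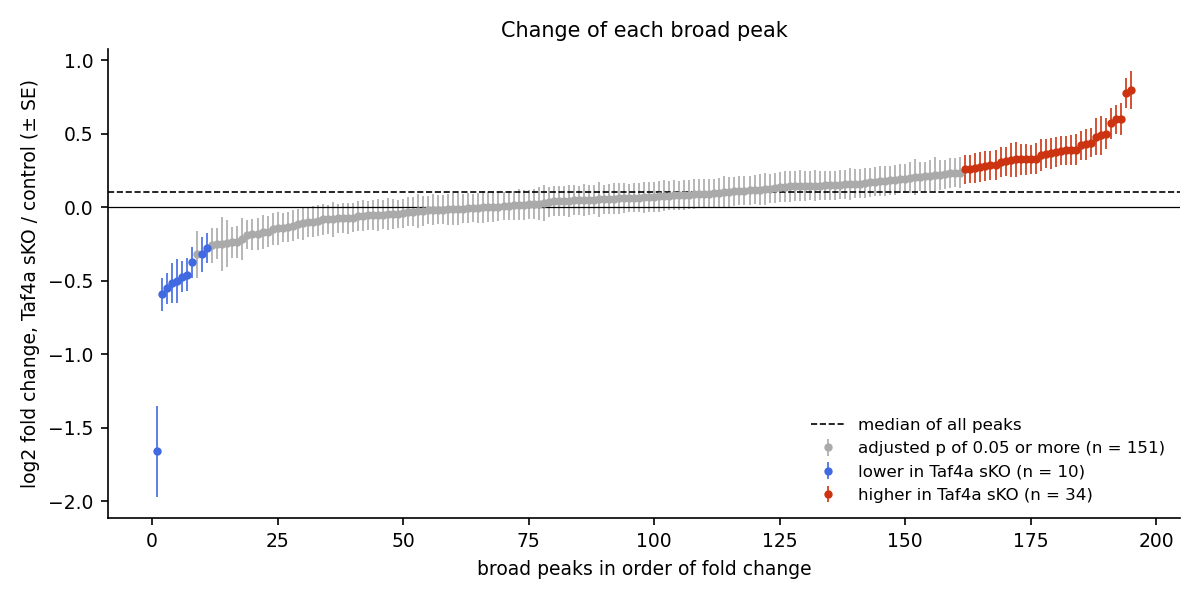
Log2 fold change (Taf4a sKO against control, with SE) of each of the 195 broad peaks in ascending order. Colour marks the 34 higher and 10 lower peaks, the dashed line is the median of all peaks at 0.11, and Grin2a stands alone at the lower end at -1.66.

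What the peak covered went with how often it was called. Among the 154 broad peaks with a protein-coding start site, 18 (11.7%) were higher and 5 (3.25%) lower, and among 13175 narrower peaks with such a start site 11.2% and 5.30% were. In the 24 without a start site, 13 (54.2%) were higher and 3 (12.5%) lower, against 31.9% and 15.9% of 58449 narrower peaks without one and 38.9% and 5.56% of the 126 of these that were 2000 to under 2500 bp wide. The medians of the log2 fold change were 0.063 and 0.33. With TMM factors 22 of the 154 (14.3%) were higher and 46 (29.9%) lower, against 11.1% and 22.1% of the narrower peaks with a protein-coding start site. Of the 24 without a start site, 13 (54.2%) were then higher and 6 lower, against 28.7% and 22.3% of the narrower ones. The count without a start site ranged from 9 higher without Taf4a sKO replicate 1 to 16 without control replicate 3, and the count with a protein-coding start site from 7 without control replicate 1 to 55 without control replicate 3. Whether the groups differ was not tested, since peaks of the same libraries are not replicates. Of the 6 repeat-rich peaks 2 were lower and none higher, against 18.2% lower and 21.7% higher among 1231 narrower repeat-rich peaks, and without Taf4a sKO replicate 2 all 6 were lower, with a median log2 fold change of -0.49.

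**Figure D4:**
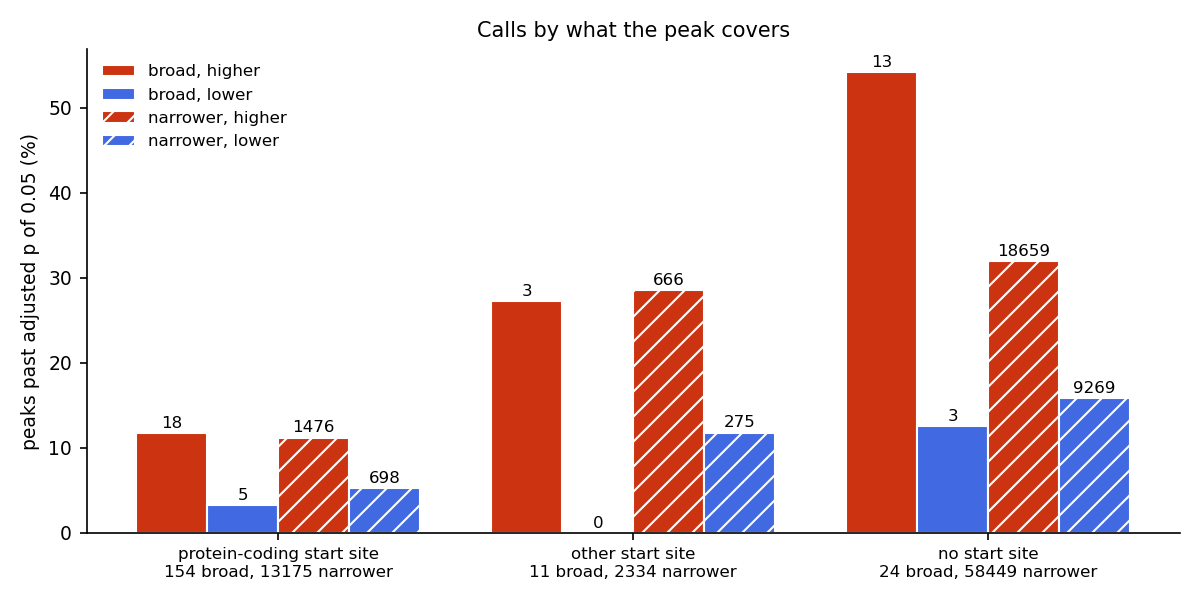
Share of peaks (%) called higher or lower in Taf4a sKO MuSCs by what the peak covers, for broad peaks (plain bars) and narrower peaks (hatched bars), with the number of called peaks above each bar. Broad and narrower peaks at protein-coding start sites stand at 11.7% and 11.2% higher, and the 24 broad peaks without a start site at 54.2%.

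The 18 broad peaks with a protein-coding start site that were higher in Taf4a sKO MuSCs included those of 2 receptors, a kinase and a zinc finger factor. Nrp1, a co-receptor for semaphorins and VEGF, measured 1616, 1527 and 1816 in control and 2637, 2372 and 2352 in Taf4a sKO MuSCs (log2 fold change 0.57 ± 0.10 SE, limma adjusted p = 0.00012). Gpr153, an orphan G-protein-coupled receptor, measured 1523, 1267 and 1439 against 2399, 2036 and 1983 (0.60 ± 0.11, limma adjusted p = 0.00012). For both genes every Taf4a sKO library was above every control library. Klf12, a zinc finger factor, measured 2431, 2714 and 3245 against 4026, 3856 and 3907 (0.50 ± 0.11). Gabarapl1, of the autophagosome ATG8 family, measured 2320, 2224 and 2592 against 3250, 3256 and 3153 (0.44 ± 0.10). Tnk2, a tyrosine kinase, rose from 847 ± 33.4 to 1140 ± 25.2 and Psat1, an enzyme of serine synthesis, from 2514 ± 195 to 3281 ± 128 (SD, n = 3). Socs2 measured 4643, 4077 and 5102 in control and 6478, 5955 and 5671 in Taf4a sKO MuSCs (0.39 ± 0.10, limma adjusted p = 0.0035). These 7 calls held in all 14 fits, which comprise the main fit and its alternatives of scaling, filter, pseudocount, block and left-out library. Sox6, 2707 ± 145 against 3240 ± 154, held in 9 of them.

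The largest increase outside repeats was in an intron of Rara, the gene for retinoic acid receptor alpha. This peak, chr11:98941458-98943969, begins 1747 bp from the nearest protein-coding start site and measured 2487, 2175 and 2595 in control and 4307, 3945 and 4153 in Taf4a sKO MuSCs (log2 fold change 0.78 ± 0.10 SE, limma adjusted p = 2e-06). Its values did not overlap, and the call held in all 14 fits with log2 fold changes from 0.63 to 0.83. The Muc3 peak measured 578, 426 and 610 against 966, 855 and 959 (0.80 ± 0.13, limma adjusted p = 4.5e-05) and lies in the 54 bp tandem repeat shown above, in which the part of read mapping in the change was not tested. Gm4876, a start site that is not protein coding on chromosome 6, had 1931, 1721 and 1983 against 2864, 2906 and 2747 (0.60 ± 0.10). Prr7, a transmembrane adaptor, carried an intronic broad peak that measured 2817, 2613 and 2970 against 3815, 3770 and 3657 (0.42 ± 0.10). The Kdm6b peak, in an intron of the H3K27 demethylase gene, measured 8147, 7136 and 9565 against 11399, 10270 and 10190 (0.37 ± 0.11, limma adjusted p = 0.0077). Without Taf4a sKO replicate 1 the adjusted p of Kdm6b was 0.052.

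Several others of the 24 broad peaks without a GENCODE start site were chosen for mention after their values were seen, for the genes nearby. An intergenic peak 17361 bp from the start site of Pax7, the factor that marks MuSCs, measured 1093, 787 and 806 in control and 1231, 1146 and 1339 in Taf4a sKO MuSCs (chr4:139850889-139853496, 0.48 ± 0.12, limma adjusted p = 0.0034), although not past the threshold with equal library totals or quantile normalisation. The start-site peak of Pax7 itself, 1933 bp wide, was lower, with 3797 ± 705 against 3011 ± 81.5 (SD, n = 3, limma adjusted p = 0.03). A peak 18689 bp from the start site of Pax3, the paralogue of Pax7, which is the one that holds the start of an assigned pseudogene, measured 1653, 1631 and 1814 against 2144, 2175 and 2346 (chr1:78215823-78218696, 0.39 ± 0.10, limma adjusted p = 0.0033). An intronic peak of Igf2r, the receptor that clears IGF2, which also lies within the antisense transcript Airn, measured 2977, 2534 and 2850 against 3929, 3582 and 3446 (0.39 ± 0.10). In Pax3 and Igf2r the calls held in all 14 fits.

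**Figure D5:**
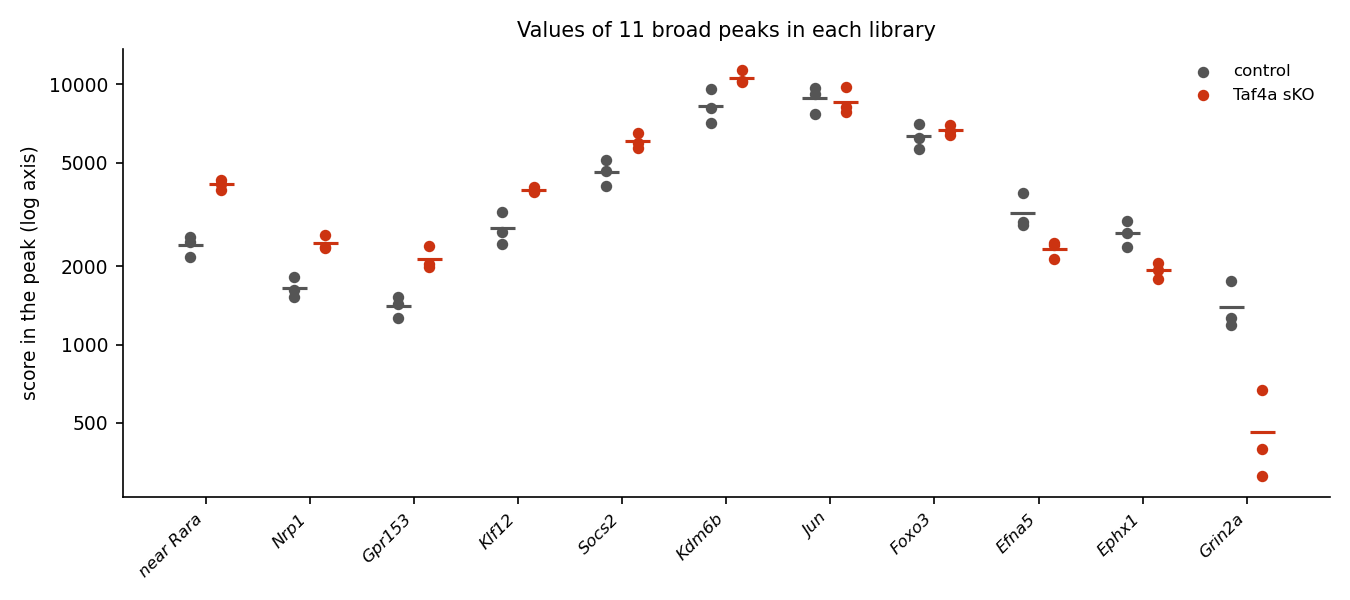
Scores of 11 broad peaks in each library (log axis), with 3 control and 3 Taf4a sKO points and the mean of each genotype as a line; near Rara stands for the peak in the Rara intron. Points of the genotypes do not overlap for the first 6 and the last 3 peaks and overlap for Jun and Foxo3, and Grin2a shows the largest distance.

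The 10 broad peaks that were lower comprised 5 with a protein-coding start site, 3 without a start site and 2 that were repeat rich. Grin2a, a subunit of the NMDA glutamate receptor, measured 1261, 1193 and 1749 in control and 398, 669 and 312 in Taf4a sKO MuSCs, which made it the most changed of all broad peaks (chr16:9992513-9995759, log2 fold change -1.66 ± 0.31 SE, limma adjusted p = 0.0063). All values of the genotypes were apart, but the adjusted p was 0.058 without Taf4a sKO replicate 1. Efna5, an ephrin ligand, measured 2959, 2883 and 3810 against 2447, 2414 and 2124 (-0.46 ± 0.11). Mdga1, a cell adhesion protein, was at 1088 ± 58.3 against 839 ± 40.0, Erbb4, a neuregulin receptor, at 657 ± 36.7 against 526 ± 13.1 and Mpped2, a metallophosphoesterase, at 1585 ± 96.5 against 1307 ± 18.4 (SD, n = 3). The Erbb4 and Mpped2 calls held in 10 of 14 fits and that of Mdga1 in 13, being lost without Taf4a sKO replicate 2 (limma adjusted p = 0.052). Ephx1, the microsomal epoxide hydrolase, measured 2695, 2370 and 2982 against 2058, 1940 and 1791 (-0.47 ± 0.11). An intergenic peak at chr2:159853002-159855507 measured 1114, 980 and 1038 against 734, 648 and 695 (-0.59 ± 0.11). The calls of Ephx1, Efna5 and the chromosome 2 peak held in all 14 fits. The 2 repeat-rich peaks that were lower lay on chromosomes 13 and 4, at 1614 ± 258 against 1129 ± 184 and 305 ± 46.1 against 213 ± 6.03. The call on chromosome 13 was lost with TMM factors, equal totals and quantile normalisation, and that on chromosome 4 without control replicate 2.

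Immediate early and stress response genes, which cells switch on within minutes of a stimulus, carried more of the broad peaks than any other list examined. Of the 40 genes in that list 39 had a peak and 7 a broad one: Jun, Egr2, Egr3, Klf9, Klf10, Zfp36l1 and Dusp6. Across all 14083 genes with a symbol and a peak, 1.12% had a broad peak. None of the 8 broad peaks of these genes passed the test by limma (0 at an unadjusted p under 0.05), with a median log2 fold change of 0.046, where 17.4% of all broad peaks were higher and 5.13% lower and 28.0% and 13.9% of all peaks. Jun measured 9165, 7702 and 9686 in control and 9729, 8182 and 7819 in Taf4a sKO MuSCs, and Klf10 9732, 8482 and 11018 against 10565, 9242 and 9042, so that the genotypes overlapped in both. Of the 24 Notch and quiescence genes 2 had a broad peak, Notch1, the receptor, and Foxo3, a forkhead factor of stem cell quiescence. Foxo3 measured 6250, 5641 and 7047 against 7009, 6594 and 6379 (0.082 ± 0.10) and Notch1 3007 ± 277 against 3116 ± 36.8 (0.055 ± 0.10). With equal library totals both log2 fold changes became negative, as did that of the start-site peak of Klf9, and these 3 then passed the test as lower. Of the 8 broad peaks of immediate early and stress genes, 4 passed as lower with equal totals (Jun, Klf10, Zfp36l1 and the start-site peak of Klf9), 1 with TMM factors (Klf10) and 1 with quantile normalisation (Jun), and 2 passed as higher without control replicate 3 (Dusp6 and Egr3).

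Further lists held a few members each. Of 46 chromatin modifiers, Kdm6b was higher and Dnmt3a, a de novo DNA methyltransferase, did not pass (3032 ± 245 against 2747 ± 98.1). That list is not the whole class. Chromatin genes outside it, among them Setd7, Kmt2e, Chd7, Arid1b and Jade2, also carried a broad start-site peak, and these named peaks did not pass the test. The circadian list of 18 genes had Bhlhe40 and Nfil3, both repressors, at 0.15 ± 0.11 and 0.15 ± 0.10. From 35 genes for growth factor signalling there were Igf1r, the IGF1 receptor, at -0.0087 ± 0.10 and Dusp4, a MAP kinase phosphatase, at 0.15 ± 0.10. Among 27 histone genes 8 had a peak and 1 broad peak covered the Hist2h2be cluster, at 2468 ± 298 against 2382 ± 107. No broad peak belonged to the 22 myogenic regulators, the 56 homeobox and developmental factors, the 18 TFIID and NF-Y genes, or the 18 ribosomal and proteasome genes, although 20, 54, 16 and 16 of them had a peak. The homeobox list is not the whole family, and homeobox genes outside it, among them Hmx3, Hoxc11, Pou3f2 and Tgif1, did carry a broad start-site peak.

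Genes with a broad peak also had other, narrower peaks. For 100 of the 170 genes there were 157 such peaks, of which 61 (38.9%) were higher and 9 (5.73%) lower, against the 28.0% and 13.9% of all peaks, with a median log2 fold change of 0.18. Where the broad peak was higher, 12 of 21 other peaks (57.1%) were higher and 1 (4.76%) was lower, and where it did not pass the test, 46 of 128 (35.9%) and 6 (4.69%) were. Socs2 had a 1243 bp peak that rose from 542 ± 22.0 to 939 ± 136 and a 204 bp peak that rose from 56.7 ± 3.21 to 138 ± 15.5, and Gpr153 a 2232 bp peak that rose from 1215 ± 65.1 to 1899 ± 331 (SD, n = 3). Where the broad peak was lower, 3 of 8 others were higher and 2 lower.

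Markers of the labelled cell type were accessible. All 10 MuSC markers had a start-site peak, at a median of 991 per kb. Pax7 had the highest score of them, and Cdh15 the highest score per kb (2332, with Pax7 at 1761). The summed score of the 10 was 17153, 14247 and 17604 in control and 16581, 15973 and 15829 in Taf4a sKO MuSCs. Endothelial markers had a start-site peak in 4 of 12 genes, at 258 per kb, and none at Pecam1 or Cdh5. Their sum, mostly Tek, was 1795, 1742 and 2296 in control and 2489, 2502 and 2419 in Taf4a sKO MuSCs, without overlap, and its part in the changes of the broad peaks was not tested. Haematopoietic markers had such a peak in 2 of 12 genes, at 417 per kb and none at Ptprc, and summed to 218, 236 and 339 against 160, 152 and 150, led by Cd68 and without overlap. Fibro-adipogenic markers had it in 7 of 12, at 292 per kb and none at Pdgfra or Ly6a, and summed to 2326, 2275 and 2497 against 2618, 2510 and 2525, led by Col15a1 and without overlap. Within that list Lum and Col15a1 were higher and Cd248 and Dpt lower, with log2 fold changes of 1.31, 0.44, -0.35 and -0.47. Myofibre markers had it in 6 of 12, at 709 per kb and none at Acta1, and summed to 6564, 5808 and 7339 against 7908, 7150 and 6974, led by Mylpf, whose 3318 per kb was above every MuSC marker. The parts of these other marker lists in the changes were not tested either. By the study's methods, cells with CD31, CD45 or SCA1 on their surface were depleted before MuSCs were sorted by integrin alpha-7 or the zsGreen reporter. When the study reanalysed sorted cells, their purity was incomplete. No gene of these 4 lists had a broad peak. In bulk samples fewer cells of a type and less signal per cell cannot be told apart. Taf4 itself had a start-site peak of 1778 bp at 2305, 1998 and 2375 in control and 2095, 2124 and 2104 in Taf4a sKO MuSCs (-0.075 ± 0.10), which does not check the deletion, since the floxed exons lie elsewhere in the gene. A second peak annotated to Taf4, 378 bp wide, measured 488, 437 and 653 against 831, 695 and 759 and was higher without overlap (0.55 ± 0.14, limma adjusted p = 0.003).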

How the data were processed

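ATAC-seq libraries of freshly isolated MuSCs (3 control, 3 Taf4a sKO) were analysed from 1 table. The authors trimmed reads with Trimmomatic 0.39, aligned them with STAR 2.7.11b to mm10, removed duplicates with Picard 3.1.1 as well as reads that were spliced, placed more than once, mitochondrial or ribosomal, used MACS for peaks, unified these, counted reads with featureCounts, scaled the counts for depth and rounded them. The methods mention no offset of read ends for the Tn5 cut. The deposited values are therefore used as a score, not as counts, and the contrasts that the authors made with DESeq2 were not used. No per-sample column was left unused (0). The members and gene lists were chosen with earlier results of these data known.

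Fits were made with limma 3.58.1 (R 4.3.3; trend and robust moderation) on log2(score + 1) of the 75384 peaks with a mean above 10, with Benjamini-Hochberg adjustment over all of them, and only rows of broad peaks are printed; fold changes are on that scale, which understates low peaks. The fit was tested on simulated data, where it called 55 of 100 peaks changed 1.5-fold and 97 of 100 changed 2-fold. These were changed among 75374 peaks, chosen without regard to width and with the same dispersion for every peak. In the data many more peaks were called, so these shares do not give the power for broad peaks. Replicates are separate samples by their labels; nothing in the labels names the animals, so the p-values measure the spread between these samples. With 3 libraries per genotype precision is limited, and an exact permutation test could not go below p = 0.1, so none was used for single peaks. Named broad peaks were the 10 widest, the 5 highest and 5 lowest per kb, the 10 smallest p in each direction among calls without overlap, those gained or lost, up to 4 per gene list, and the 3 on each side of the width threshold; 1 broad peak that the rule names is not reported here. Start sites came from GENCODE vM21, where 99.8% of the deposited gene IDs were found, and sequence from GRCm38 and the RefSeq promoter table; coordinates are as in the file, whose first base (0 or 1) is not given in the sources used here. Alternatives covered scaling (TMM, the trimmed mean of M values, equal totals and quantile normalisation), filter, pseudocount, replicate block, width threshold and each library left out.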

Additional observations from a re-analysis of the deposited data

How the results depend on the processing

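Of the 44 calls among broad peaks, 16 of the 34 higher and 4 of the 10 lower held in all 14 fits, and none of the 44 changed direction. Of the 151 broad peaks that did not pass in the main fit, 34 stayed without a call in all 14 fits. Under TMM factors, equal totals and quantile normalisation the number of lower peaks was 55, 78 and 66 and the median log2 fold change turned to -0.043, -0.080 and -0.033; with equal totals, values that had not passed the test turned negative and passed for Foxo3 (-0.066), Notch1 (-0.093) and the start-site peak of Klf9 (-0.10). The cause was not tested. Leaving out single libraries gave 19 to 76 higher and 8 to 14 lower peaks and medians of 0.0076 to 0.14. At a width of 2000 bp, where 881 peaks qualify, 175 were higher, 41 lower, 4 gained and 2 lost, and the share of signal in these peaks was 0.164 percentage points lower in Taf4a sKO (-0.164). At 3000 bp, with 52 peaks, 10 were higher and 4 lower. A 1.5-fold cut-off gave 4 gained and 2 lost. Without the repeat-rich peaks, chosen after seeing the data, 34 were higher and 8 lower. Pseudocount, filters on low scores and removal of chromosomes X and Y left 34 higher and 10 lower.

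The labels share replicate numbers 1 to 3, but same-numbered libraries did not deviate together (correlations 0.11, -0.12 and -0.03), so the numbers give no pairing. With the replicate block 31 broad peaks were higher and 10 lower, with the calls of Foxp1, Sox6 and Epas1 lost.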

Other observations

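Across width classes the share of peaks called higher in Taf4a sKO MuSCs was 25.3% under 500 bp, 33.1% at 500 to under 1000 bp, 25.2% at 1000 to under 1500 bp, 22.2% at 1500 to under 2000 bp, 20.6% at 2000 to under 2500 bp and 17.4% in broad peaks, and the share called lower was 17.9% under 500 bp, 13.6% at 500 to under 1000 bp (with 837 of 11953 at 1000 to under 1500 bp), 5.31% at 1500 to under 2000 bp, 4.52% at 2000 to under 2500 bp and 5.13% in broad peaks. These shares are on the deposited scale. With TMM factors 28.2% of broad peaks were lower against 22.3% of all peaks. With equal totals these shares were 40.0% and 25.8%, and with quantile normalisation 33.8% and 25.1%. On the deposited scale the spread of the log2 fold change between the quartiles was 0.95 in peaks under 500 bp and 0.22 in broad peaks, while the median residual SD between libraries of a genotype was 0.25 and 0.11. Within broad peaks, the Spearman correlation with the log2 fold change was 0.23 for the score per kb and -0.12 for CG per kb, over 195 peaks that share the same 6 libraries, and 0.17 and -0.21 over the 189 that are not repeat rich.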
